A study of Rattus norvegicus with 12 samples.

Results

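Resveratrol was added to cells in high glucose, and poly(A)-selected RNA was sequenced after 48 h. The comparison is between 3 libraries in 100 mM D-glucose with 5 µM resveratrol (HG-Res) and 3 libraries in 100 mM D-glucose with no drug (HG), 6 of the series' 12 libraries. The labels describe both groups as wild-type H9C2, a rat line that came from embryonic heart tissue, and number the samples as biological replicates, so the p-values measure the spread between these samples. Neither a vehicle in HG nor an osmotic control is described. All 20263 genes of the deposited table for this comparison were used, and each value was recomputed from the library columns. The 2 remaining groups, 5.5 mM glucose without drug (Ctrl) and HG-Res-SIRT7-Inh, which had 5 µM SirReal2, described as inhibiting SIRT7, besides resveratrol and high glucose, are given only as levels beside genes of interest.

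Resveratrol is a plant polyphenol studied as an indirect activator of sirtuins, which are NAD-dependent deacylases. It is also known to bind the aryl hydrocarbon receptor, a ligand-activated transcription factor that switches on CYP1 enzymes. Interferon-stimulated genes are the antiviral genes that rise when interferons signal through JAK kinases and a complex that includes STAT2 and IRF9, which binds the interferon-stimulated response element in promoters. Chemokines and interleukins such as CXCL8 and IL1B are instead typical targets of NF-kB.

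The species of the values conflicts with the labels. The 20263 rows are named by identifiers of the form Ensembl gives to human genes (ENSG), all of them. The samples are labelled rat, and the submitters' processing notes give the rat build rn6. None of the identifiers, 0 of 20263, is in the RefSeq rat gene table of GRCr8. No table used here pairs these identifiers with names, so 780 symbols were assigned from general knowledge of Ensembl's human catalogue and are not drawn from a file. Row order was used only as a check on them: all 780 lay where the human position recalled for the gene fits between its neighbours, within 1 Mb, over 24 human chromosomes including the mitochondrial genome. Of the 780 symbols, 44 have no rat gene of that spelling, some because rat names differ. One of the 44 is CXCL8, a chemokine gene that rats and mice lack, and its row held 15.3 to 16.6 CPM in HG. Which species the reads came from was not tested, and the symbols are human ones throughout.

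The label cardiomyocyte was checked against marker genes, which it did not match. Of 18 cardiomyocyte markers, MYH7, TNNT2, MYL7, NKX2-5, PLN and MYBPC3 were at 0 in all 6 libraries, and the 18 summed to 17.1 to 20.3 CPM in HG and 20.6 to 25.9 CPM in HG-Res, led by GATA4, so that the sums did not overlap. NPPB, the natriuretic peptide gene of this list, rose from 4.26 ± 0.36 to 7.64 ± 1.81 CPM (SD, n = 3). The 10 skeletal myoblast markers summed to 1.54 to 1.90 CPM in HG and 1.66 to 1.87 CPM in HG-Res, with MYOG, MYF5, MYF6 and PAX7 at 0. All 13 mesenchymal markers were expressed, at 7154 to 7408 CPM in HG and 7235 to 7477 CPM in HG-Res in sum. The sums of 3 other lists did not overlap between the groups either, where 30.0% of single genes tested did not overlap. Epithelial markers summed to 849.8 to 965 CPM in HG and 1089 to 1151 CPM in HG-Res, led by KRT18, while GRHL2 was at 0 and CDH1 under 0.3 CPM. Endothelial markers summed to 197 to 226 CPM in HG and 252 to 269 CPM in HG-Res, led by ENG, while VWF, CDH5 and ERG stayed under 0.7 CPM. Leukocyte markers summed to 132 to 156 CPM in HG and 193 to 198 CPM in HG-Res, led by CD68 and CD14, while CD3E and TYROBP were at 0 and PTPRC was under 0.6 CPM. Hepatocyte markers summed to 1.94 to 2.59 CPM in HG and 1.94 to 2.52 CPM in HG-Res, with APOB, TTR and FGB at 0. By the test described below, the markers that rose were 1 of 5 tested in the cardiomyocyte list (NPPB) and 1 of 8 in the epithelial list (KRT18). In the endothelial list 2 of 7 rose (ENG, TIE1), and in the leukocyte list 2 of 2 (CD68, CD14). In the mesenchymal list 2 of 13 fell (COL3A1, DCN). Over all genes tested 2.58% rose and 2.27% fell. The part of these differences in the results below was not tested.

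Depth was even, and the HG libraries differed more from each other than the HG-Res libraries did. The values of up to 20 steps are whole multiples of 1 step per library, within 0.0051 CPM, which puts the depth at 31.1 to 33.2 M reads (M, 1e6). The median SD between replicates on the log2 scale was 0.13 in HG and 0.07 in HG-Res. The first principal component (46.5% of the variance) ran within HG, with replicates 2 and 3 at its ends. The groups parted on the second (33.9%). HG replicate 2 deviated most from its group mean, by 0.23 on the log2 scale (root mean square over genes), against 0.10 and 0.17 for HG replicates 1 and 3 and 0.10 to 0.11 for HG-Res. The list counts below are therefore also given for the fit without it, in which 1979 of all 12631 genes tested rose and 2374 fell. List counts from that fit are to be read against these shares. The library was left out because it deviated most in its group, so that fit understates the spread between HG samples. P-values of that fit tend to be too small for this reason.

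Levels are in CPM, the reads of a gene per 1e6 reads of its library, which compare libraries for 1 gene and do not compare genes, since they are not scaled by length. A gene rose or fell if it passed an adjusted p of 0.05 in limma, fitted over the 12699 genes that reached 0.5 CPM in 3 or more of the 6 libraries. By that rule 327 genes rose (2.58%) and 288 fell (2.27%), 615 in all (4.84%). Most of these changes were small: the median size was 0.44 on the log2 scale among both the genes that rose and those that fell. A fitted log2 change of at least 1 in size was reached by 11 of the former and 12 of the latter. The fit was on log2(CPM + 1), which makes fold changes of low genes too small. The median change of all genes was 0.00. In bulk RNA, fewer cells of a type and less RNA per cell cannot be told apart. The 3 values of HG-Res lay clear of the 3 values of HG in 30.0% of genes tested, above them in 15.1% and below them in 14.9%. The 12 largest rises and 12 largest falls named below were taken only from genes without overlap. Their separation was therefore set by that choice and is no further result.

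**Figure D1:**
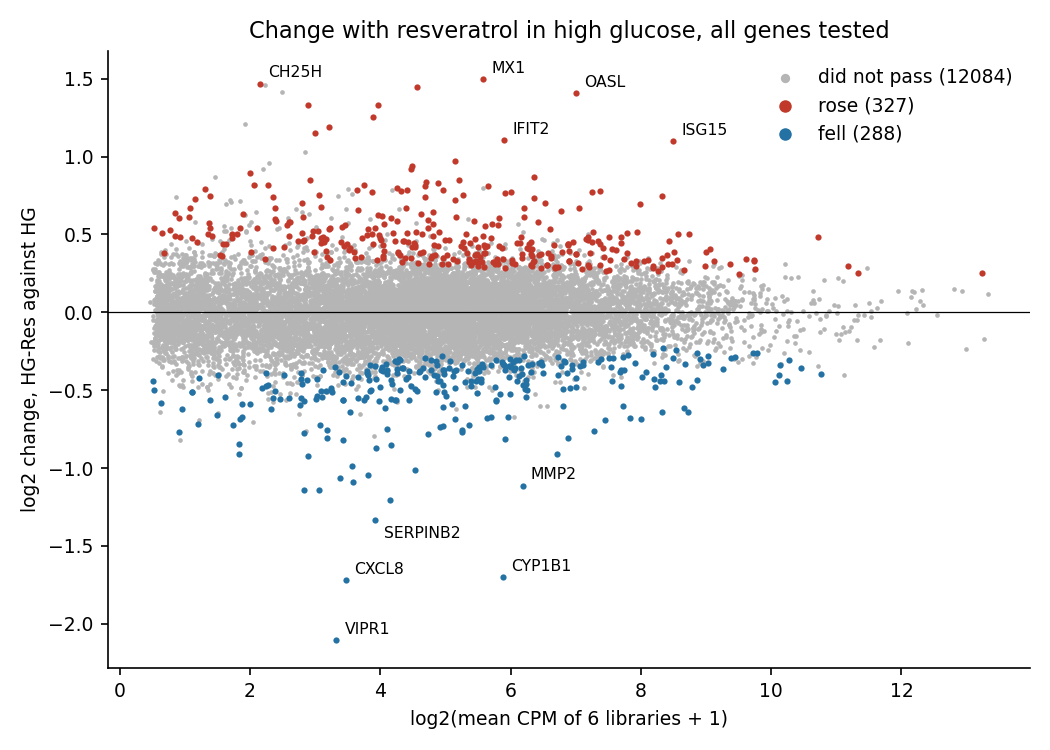
Log2 change between HG-Res and HG (y axis) against the mean level of each gene over the 6 libraries on a log2 scale (x axis), with 327 genes that rose in red, 288 that fell in blue and the other 12084 in grey. The antiviral genes MX1, OASL, IFIT2 and ISG15 lie at the top and VIPR1, CXCL8 and CYP1B1 at the bottom.

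The number of genes called depended on single libraries. Without HG replicate 2 it was 4353, without HG replicate 3 it was 219, and without HG replicate 1 it was 33. Leaving out HG-Res replicate 1, 2 or 3 gave 36, 24 and 36. A fit that shared 1 spread over all 9 high-glucose libraries called 91 genes, and these 91 were among the 615. In all 17 alternative analyses of single genes, 20 of the 615 passed. They include MX1, MX2, OAS1, OAS2, OASL, IFIT2, PLAT and PPME1 among the genes that rose, and VIPR1, CXCL8, SERPINB2, COLEC12, PKNOX2, MMP2, SIPA1L2, FAM167A, ALDH1A3, RIPOR3 and STC2 among those that fell. PLAT and PPME1 are named because they are in this set.

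**Figure D2:**
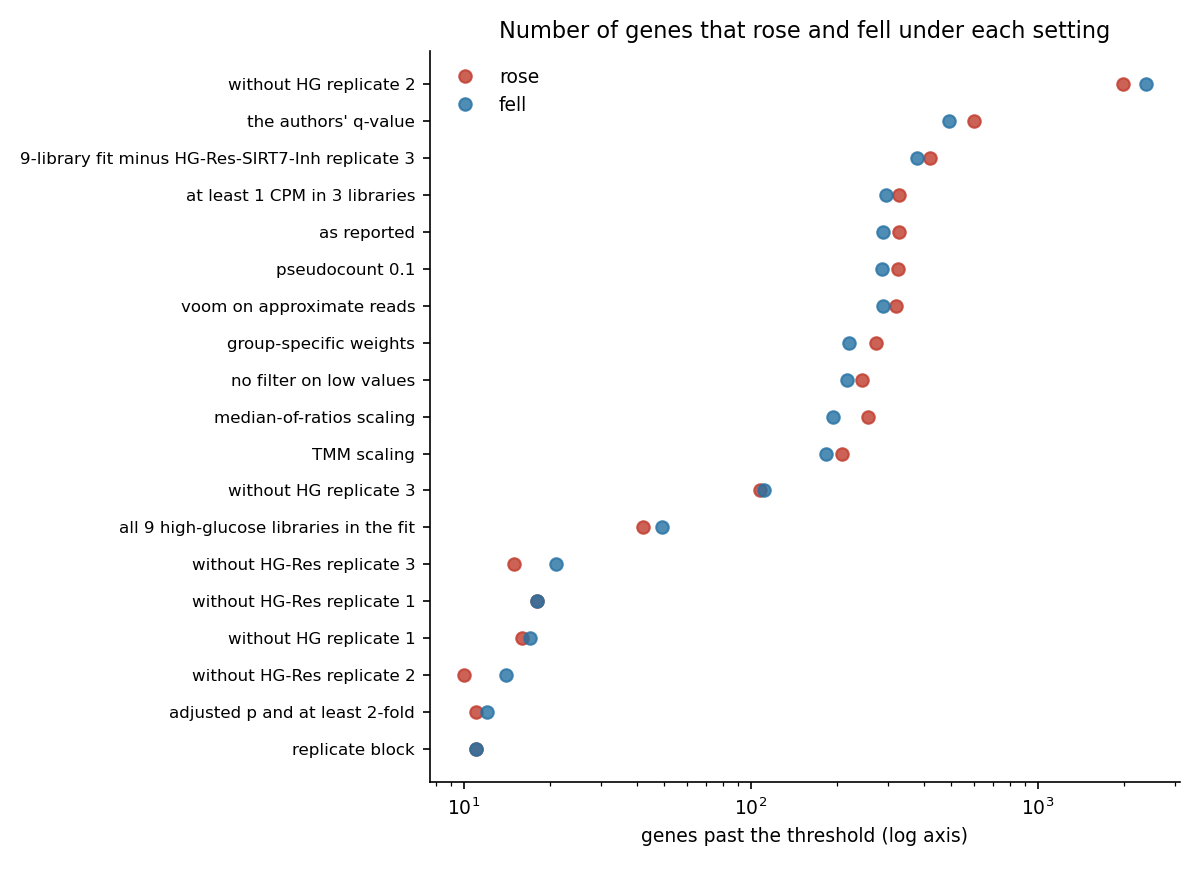
Number of genes that rose (red) and fell (blue) on a log axis (x axis) under the reported analysis and each alternative (y axis). The reported 327 and 288 lie near most alternatives of scaling and filter, the fits without 1 HG-Res library lie between 10 and 21, and the fit without HG replicate 2 lies at 1979 and 2374.

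The largest rises were in antiviral genes that interferons induce. Of 46 interferon-stimulated genes on the list, 45 were tested, 30 rose and none fell, against 2.58% of all genes that rose. This list, like the others, was chosen with earlier results of these data known. The median change of the 45 was 0.70 on the log2 scale, against 0.00 over all genes, and 43 of the 45 lay above 0. Replicate values of HG-Res lay above those of HG in 40 of the 45, against 15.1% of all genes tested. When HG replicate 2 was left out, 39 of 45 rose, against 1979 of all 12631 genes, and the median was 0.59.

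The promoters of several of these genes hold the core of the interferon-stimulated response element, and 4 stretches are shown, all chosen from members that rose. They are rat sequences from RefSeq (GRCr8), matched by symbol and written on the gene's strand, while the identifiers of the data are human. Capitals mark the motif searched, GAAA, any 2 bases and GAAA again, or its reverse complement, TTTC, any 2 bases and TTTC.
Ddx60, chr16:33208854-33208927, minus strand: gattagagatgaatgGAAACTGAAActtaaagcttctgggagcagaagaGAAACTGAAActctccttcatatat
Rsad2, chr6:48788243-48788282, minus strand: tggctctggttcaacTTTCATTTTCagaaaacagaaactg
Isg20, chr1:142239952-142239991, plus strand: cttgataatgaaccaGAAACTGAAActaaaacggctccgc
Irf7, chr1:205800068-205800107, minus strand: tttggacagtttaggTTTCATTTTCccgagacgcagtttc
In the 250 bases before the start, the motif on either strand was present in 20 of the 31 list members with an entry, and in 11 of the 19 with an entry that rose. It was present in 1140 of all 33469 entries, or 3.41%. List members that did not pass, IFIH1, SAMD9 and XAF1 among them, held it as well, so it was not confined to genes that rose. The entries of Mx1 and Oasl, whose genes were among the largest rises, did not hold these letters. A match describes the sequence and does not show a bound site.

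MX1 and MX2 encode dynamin-like GTPases that block virus replication. MX1 (ENSG00000157601) was at 24.6, 23.7 and 23.5 CPM in HG and 67.3, 71.2 and 69.95 CPM in HG-Res. The HG-Res libraries were all well above the HG level and no values overlapped, and its fitted log2 change was 1.5 ± 0.06 (SE, limma adjusted p = 0.000287). MX2 (ENSG00000183486) was at 4.97, 4.13 and 4.76 CPM in HG and 10.9, 11.3 and 13.3 CPM in HG-Res, again without overlap, and changed by 1.19 ± 0.10 (SE, limma adjusted p = 0.00399).

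The OAS genes encode the enzymes that make the oligoadenylate messenger that activates RNase L. OAS2 (ENSG00000111335) was at 11.5, 11.3 and 12.1 CPM in HG and 30.9, 34.3 and 35.4 CPM in HG-Res. OAS1 (ENSG00000089127) was at 7.92, 7.69 and 8.07 CPM in HG and 19.4, 21.9 and 23.1 CPM in HG-Res. OASL (ENSG00000135114), an OAS-like protein without that enzyme activity, was at 69.7, 73.7 and 65.03 CPM in HG and 179.9, 191 and 187 CPM in HG-Res. In each of these genes the lowest HG-Res library was above the highest HG library. Log2 changes were 1.45 ± 0.08 (SE, limma adjusted p = 0.000681) for OAS2, 1.33 ± 0.08 (SE, limma adjusted p = 0.00136) for OAS1 and 1.41 ± 0.07 (SE, limma adjusted p = 0.00058) for OASL. OAS3 rose by less, 0.70 (limma adjusted p = 0.00259).

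ISG15, a ubiquitin-like protein, and the enzymes that attach and remove it rose. ISG15 (ENSG00000187608) was at 218, 270.1 and 204 CPM in HG and 499, 487 and 488 CPM in HG-Res. HG replicate 2 was the highest of the HG libraries and still well below every HG-Res library. USP18 (ENSG00000184979), the protease that removes ISG15 and restrains interferon signalling, was at 8.87, 7.99 and 6.43 CPM in HG and 18.7, 20.6 and 19.9 CPM in HG-Res. HERC5 (ENSG00000138646), the main ligase for ISG15 in human cells, was at 23.8, 16.9 and 29.1 CPM in HG and 50.7, 44.6 and 41.6 CPM in HG-Res, with HG replicate 2 the lowest. Log2 changes were 1.10 ± 0.10 (SE, limma adjusted p = 0.00527), 1.25 ± 0.11 (SE, limma adjusted p = 0.00439) and 0.97 ± 0.19 (SE, limma adjusted p = 0.0365). For HERC5 the change was 0.77 without HG replicate 2. HERC6 and the conjugating enzyme UBE2L6 rose by 0.81 and 0.33 (limma adjusted p = 0.0194 and 0.0365).

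IFIT proteins bind viral RNA. IFIT2 (ENSG00000119922) was at 38.3, 34.5 and 38.2 CPM in HG and 79.4, 79.6 and 82.9 CPM in HG-Res, with no overlap and a change of 1.10 ± 0.07 (SE, limma adjusted p = 0.00136). IFIT3 and IFIT1 rose by 0.77 and 0.77, while IFIT5 was at -0.03 and did not pass (limma adjusted p = 0.00439, 0.0153 and 0.888). Among the sensors of viral RNA, RIGI rose by 0.81 and its helper DDX60 by 0.92, and IFIH1 was 0.66 higher without passing (limma adjusted p = 0.0205, 0.0285 and 0.0513). IFIH1 passed without HG replicate 2, at 0.51 (limma adjusted p = 0.0043). Other members that rose were the antiviral enzyme RSAD2, the exonuclease ISG20, IFI6, IFI35, IFI44, IFI44L, IFITM1, BST2, LGALS3BP, PARP9, PARP14 and DTX3L, by 0.46 to 0.90 on the log2 scale.

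Some factors that carry interferon signals also rose. STAT2 rose by 0.58 and IRF7 by 0.78 (limma adjusted p = 0.01 and 0.0295). IRF9 was under 0.4 CPM in all 6 libraries and was not tested. Genes for interferons and their receptors, chosen after their values were seen, gave no call with all 6 libraries. IFNB1 was at 0 in all libraries but HG replicate 3 (0.16 CPM), IFNL1 was at 0 in all 6, and IFNAR1, IFNAR2, JAK1 and TYK2 had log2 changes of 0.17, -0.04, -0.05 and 0.15 (limma adjusted p = 0.75, 0.812, 0.834 and 0.329). Leaving out HG replicate 2 turned IFNAR1 to -0.11 (limma adjusted p = 0.466), and there TYK2 rose by 0.22 and the interferon gamma receptor gene IFNGR1 changed by -0.38 (limma adjusted p = 0.018 and 0.00523). CXCL10 and GBP1, induced by interferon gamma as well, had log2 changes of -0.0013 and 0.01, and neither passed.

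How many interferon-stimulated genes passed depended on the libraries in the fit. The count was 9, 7 and 9 without HG-Res replicates 1, 2 and 3, 10 without HG replicate 1, 28 without HG replicate 3 and 14 in the fit over 9 libraries. In every fit that left out 1 library, 7 passed: MX1, MX2, OAS1, OAS2, OAS3, OASL and IFIT2.

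**Figure D3:**
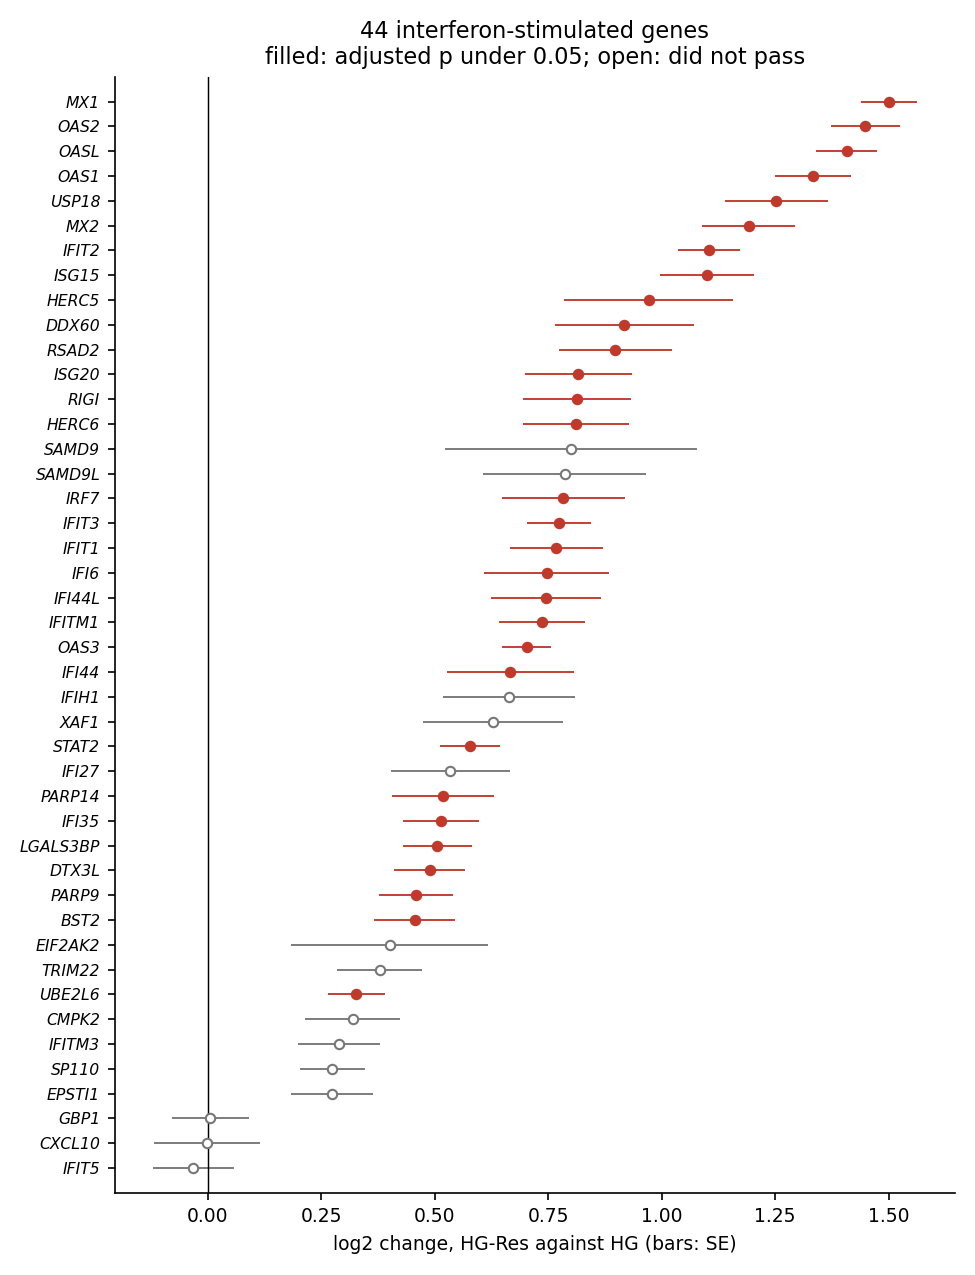
Log2 change between HG-Res and HG with its SE (x axis) for 44 of the 45 interferon-stimulated genes tested, ordered by size (y axis). Filled points passed an adjusted p of 0.05, and 42 of the 44 lie to the right of 0.

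Class I antigen presentation, which interferons also raise, held few calls. Of 17 genes, 1 rose and 1 fell, against 2.58% and 2.27% of all genes, and the median was 0.15. TAPBP (ENSG00000231925), tapasin, was at 144, 152 and 159 CPM in HG and 199, 197 and 187 CPM in HG-Res, a change of 0.36 ± 0.06 (SE, limma adjusted p = 0.0299). B2M (ENSG00000166710), the light chain of class I molecules, was at 1276, 1237 and 1254 CPM in HG and 949, 984 and 1055 CPM in HG-Res and changed by -0.34 ± 0.05 (SE, limma adjusted p = 0.0269). HLA-B and HLA-C had log2 changes of 0.15 and 0.22 and did not pass with all libraries, but both rose without HG replicate 2, at 0.25 and 0.32. These genes share long stretches of sequence, and how shared reads were assigned is not given in the sources used here. Neither call was made in the fits without HG-Res replicate 1, 2 or 3 or HG replicate 1. Without HG replicate 2, 9 genes rose and 1 fell, where 1979 of all 12631 genes rose and 2374 fell.

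CH25H and IL18, which are outside the antiviral list, were also among the 12 largest rises. CH25H (ENSG00000138135), cholesterol 25-hydroxylase, makes an antiviral oxysterol and was at 1.45, 0.93 and 1.67 CPM in HG and 7.03, 5.06 and 4.51 CPM in HG-Res. Every HG-Res library was above every HG library, with HG-Res replicate 1 the highest, and the log2 change was 1.47 ± 0.18 (SE, limma adjusted p = 0.0106). IL18 (ENSG00000150782), an inflammasome cytokine, was at 3.68, 3.38 and 4.89 CPM in HG and 11.1, 9.42 and 9.46 CPM in HG-Res and changed by 1.15 ± 0.13 (SE, limma adjusted p = 0.01). CH25H passed in 12 of 17 alternatives and IL18 in 11. The other oxysterol and LXR genes did not pass, with 1 of 9 tested rising in all, and ABCA1 and MYLIP had log2 changes of -0.04 and 0.05. Without HG replicate 2, 3 of the 9 rose, against 1979 of all 12631 genes.

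**Figure D4:**
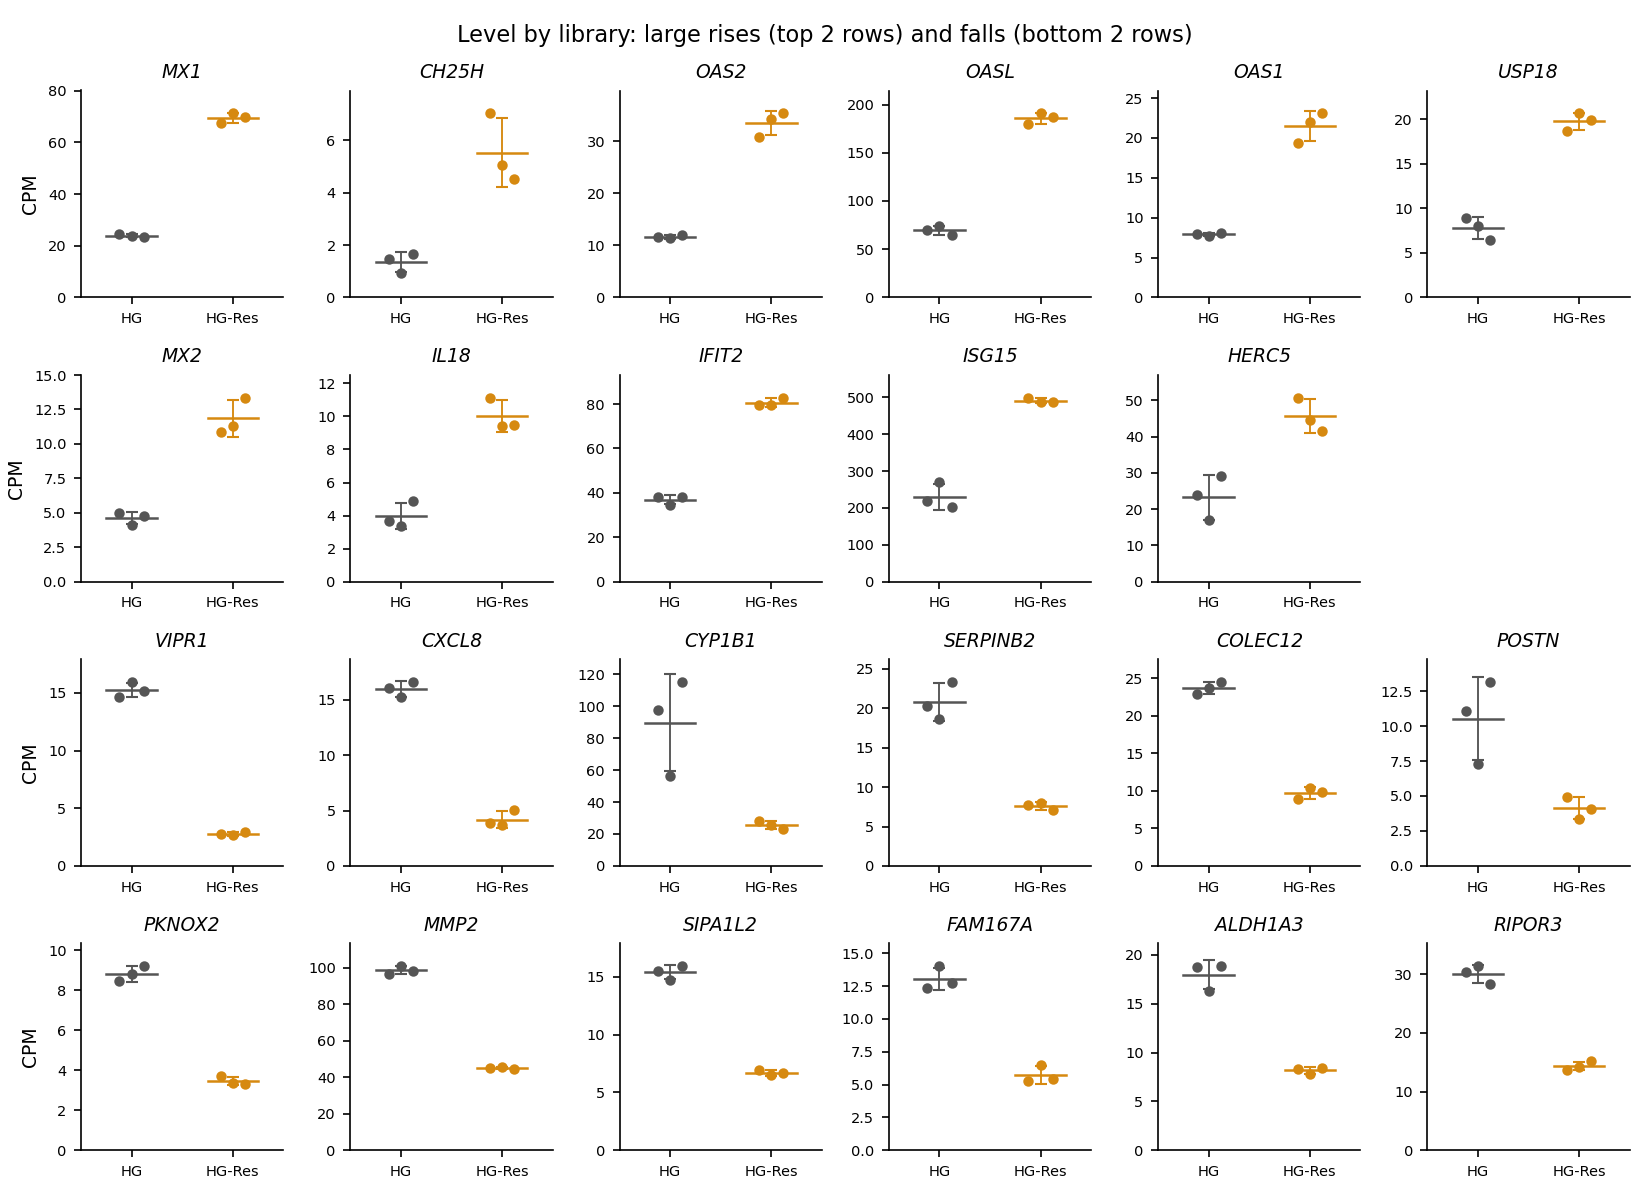
Level in CPM (y axes, starting at 0) in each library of HG and HG-Res for 11 of the 12 genes that rose most (top rows) and the 12 that fell most (bottom rows), with the group mean and SD. The 3 points of HG-Res lie clear of the 3 points of HG in all 23 genes, which the rule that chose them required. HG is widest relative to its mean for CYP1B1.

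The largest falls were in a peptide receptor, a chemokine and a xenobiotic enzyme. VIPR1 (ENSG00000114812), a receptor for vasoactive intestinal peptide, was at 14.7, 15.9 and 15.1 CPM in HG and 2.74, 2.66 and 2.95 CPM in HG-Res. Its log2 change of -2.10 ± 0.07 (SE, limma adjusted p = 0.000205) was the largest of all genes tested. SERPINB2 (ENSG00000197632), plasminogen activator inhibitor 2, was at 20.3, 18.6 and 23.3 CPM in HG and 7.73, 8.03 and 7.11 CPM in HG-Res, a change of -1.33 ± 0.10 (SE, limma adjusted p = 0.00229). The gene of tissue plasminogen activator, PLAT, went the other way and rose by 0.87 (limma adjusted p = 0.00281).

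Other genes with fitted log2 changes of -1.20 to -1.01 had varied roles. COLEC12 (ENSG00000158270), a scavenger receptor, was at 22.9, 23.8 and 24.5 CPM in HG and 8.91, 10.4 and 9.90 CPM in HG-Res. ALDH1A3 (ENSG00000184254), which makes retinoic acid, was at 18.8, 16.3 and 18.8 CPM in HG and 8.30, 7.81 and 8.46 CPM in HG-Res. PKNOX2 (ENSG00000165495), a homeodomain factor, was at 8.43, 8.80 and 9.19 CPM in HG and 3.69, 3.38 and 3.29 CPM in HG-Res. The groups were apart in each, with log2 changes of -1.20, -1.04 and -1.14 (limma adjusted p = 0.00136, 0.00285 and 0.00136). SIPA1L2 (ENSG00000116991), FAM167A (ENSG00000154319) and RIPOR3 (ENSG00000042062) changed by -1.09, -1.06 and -1.01 (limma adjusted p = 0.00136, 0.00439 and 0.00229).

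More chemokine genes fell than rose. Of 16, 15 were tested, 4 fell (2.27% of all genes fell) and 1 rose, and the median change was -0.09. CXCL8 (ENSG00000169429), the neutrophil attractant interleukin 8, was at 16.1, 15.3 and 16.6 CPM in HG and 3.85, 3.67 and 5.05 CPM in HG-Res. Every HG-Res library was below every HG library, and the change was -1.72 ± 0.11 (SE, limma adjusted p = 0.00136). CXCL12 (ENSG00000107562), the ligand of CXCR4, was at 323, 295 and 326 CPM in HG and 196, 194 and 195 CPM in HG-Res, a change of -0.68 ± 0.06 (SE, limma adjusted p = 0.00399). CXCL3 (ENSG00000163734) was at 3.05, 3.56 and 2.93 CPM in HG and 1.69, 1.23 and 1.69 CPM in HG-Res, a change of -0.72 ± 0.11 (SE, limma adjusted p = 0.0217). CXCL1 fell by 0.51 (limma adjusted p = 0.0348), CXCL2 was lower without passing (-0.52, limma adjusted p = 0.0569), though it passed without HG replicate 2, and CCL2 was at -0.01.

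CCL5 (ENSG00000271503), a T-cell attractant that interferon and NF-kB both induce, rose. It was at 17.4, 19.4 and 16.3 CPM in HG and 32.4, 34.4 and 30.4 CPM in HG-Res, with a change of 0.84 ± 0.09 (SE, limma adjusted p = 0.0082). Among chemokines 1 gene, CXCL8, passed in every fit that left out 1 library. The number that fell was 2, 1 and 2 without HG-Res replicates 1, 2 and 3, and 2 without HG replicate 1. Without HG replicate 2, 5 fell and 2 rose, where 2374 of all 12631 genes fell and 1979 rose. CCL5 did not pass without HG-Res replicate 1, 2 or 3 or HG replicate 1.

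Cytokine genes showed changes in both directions. Of 20 on the list, 14 were tested, 3 fell and 1, IL18, rose, against 2.27% and 2.58% of all genes. IL1B (ENSG00000125538), a central inflammatory cytokine, was at 23.1, 21.1 and 22.1 CPM in HG and 10.4, 12.1 and 12.97 CPM in HG-Res, a change of -0.85 ± 0.09 (SE, limma adjusted p = 0.00959). TNFRSF11B (ENSG00000164761), osteoprotegerin, was at 156, 140.3 and 154 CPM in HG and 82.5, 89.99 and 83.3 CPM in HG-Res, a change of -0.81 ± 0.07 (SE, limma adjusted p = 0.00399). LIF fell by 0.37 (limma adjusted p = 0.0401). IL6 was at 11.8, 13.5 and 13.02 CPM in HG and 14.8, 17.8 and 15.3 CPM in HG-Res, and its change of 0.30 did not pass (limma adjusted p = 0.114), while without HG replicate 2 it did, at 0.34 (limma adjusted p = 0.0213). TNF was at 0 in all 6 libraries. TNFRSF11B passed in every fit that left out 1 library. The number that fell was 1, 1 and 2 without HG-Res replicates 1, 2 and 3, and 1 without HG replicate 1. With HG replicate 2 left out, 5 fell and 4 rose, where 2374 of all 12631 genes fell and 1979 rose.

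NF-kB subunits and feedback targets gave 1 call. Of 21 genes, 20 were tested, 1 rose and none fell, and the median was -0.07, where 2.58% of all genes rose. The gene that rose was IRF1 (ENSG00000125347), a factor induced by interferon gamma and NF-kB, at 23.2, 24.2 and 22.2 CPM in HG and 29.7, 29.8 and 30.1 CPM in HG-Res, a change of 0.35 ± 0.06 (SE, limma adjusted p = 0.034). IRF1 passed in 9 of 17 alternatives. With HG replicate 2 left out, 4 genes of the list rose and 2 fell, where 1979 of all 12631 genes rose and 2374 fell.

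Most tested genes of the aryl hydrocarbon receptor fell. Of 12, 8 were tested, 5 fell and none rose, against 2.27% of all genes that fell, with a median change of -0.54. Without HG replicate 2, 5 of 8 also fell, against 2374 of all 12631 genes, with a median of -0.53. CYP1A1, the classical target, was under 0.9 CPM in all 6 libraries and had a log2 change of -0.15 (limma adjusted p = 0.421). The receptor gene AHR was at 23.6, 15.9 and 25.6 CPM in HG and 26.5, 23.2 and 22.7 CPM in HG-Res and its partner ARNT had a log2 change of -0.03. Neither passed (limma adjusted p = 0.629 and 0.795), and AHR turned to -0.03 without HG replicate 2.

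The receptor binds GCGTG, the core of the xenobiotic response element, and 3 stretches are shown for the members with the largest falls. They are RefSeq rat sequences (GRCr8) on the gene's strand, with GCGTG or its reverse complement CACGC in capitals.
Cyp1b1, chr6:21094469-21094503, plus strand: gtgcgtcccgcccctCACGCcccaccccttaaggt
Ahrr, chr1:30822062-30822121, plus strand: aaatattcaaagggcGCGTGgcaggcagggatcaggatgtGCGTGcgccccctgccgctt
Tiparp, chr2:152063618-152063652, plus strand: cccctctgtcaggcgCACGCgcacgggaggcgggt
Of the 10 list members with an entry, 8 held the motif in the 250 bases before the start on either strand, as did all 5 that fell. The 5 letters are common: 8666 of 33469 entries, or 25.9%, held them.

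CYP1B1 (ENSG00000138061), which oxidises hydrocarbons and estrogens, was at 97.8, 56.4 and 115 CPM in HG and 28.4, 25.8 and 23.2 CPM in HG-Res. HG replicate 2 was the lowest HG library and still above every HG-Res library. The change was -1.70 ± 0.25 (SE, limma adjusted p = 0.0199), and -2.004 without HG replicate 2. AHRR (ENSG00000063438), the repressor that the receptor induces against itself, was at 18.96, 19.1 and 18.4 CPM in HG and 10.5, 9.71 and 9.34 CPM in HG-Res, a change of -0.87 ± 0.07 (SE, limma adjusted p = 0.00335). TIPARP (ENSG00000163659), a mono-ADP-ribosyltransferase that restrains the receptor, was at 47.4, 38.4 and 55.5 CPM in HG and 27.5, 27.3 and 26.1 CPM in HG-Res, a change of -0.77 ± 0.13 (SE, limma adjusted p = 0.0285). NQO1, a quinone reductase also under NRF2, went from 515 ± 23.6 to 368 ± 3.05 CPM (SD, n = 3). SLC7A5, a leucine transporter also under ATF4, went from 255 ± 19.2 to 167 ± 4.62 CPM (SD, n = 3). AHRR alone passed in every fit that left out 1 library: 1 of the 5 passed without HG-Res replicate 1, 2 or 3 or HG replicate 1, and 2 passed in the fit over 9 libraries.

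Genes of the extracellular matrix changed in both directions. Of 36, 35 were tested, 7 fell and 4 rose, against 2.27% and 2.58% of all genes, with a median of 0.07. MMP2 (ENSG00000087245), the gelatinase A gene, was at 96.5, 101 and 98.3 CPM in HG and 45.04, 45.8 and 44.2 CPM in HG-Res, a change of -1.11 ± 0.06 (SE, limma adjusted p = 0.000681). COL3A1 (ENSG00000168542), fibrillar collagen III, was at 507, 478 and 481 CPM in HG and 315, 319.8 and 321 CPM in HG-Res, a change of -0.61 ± 0.05 (SE, limma adjusted p = 0.00335). SPARC (ENSG00000113140), a collagen-binding glycoprotein, was at 1221, 1257 and 1213 CPM in HG and 886, 903 and 915 CPM in HG-Res, a change of -0.45 ± 0.04 (SE, limma adjusted p = 0.00664). COL5A1, COL6A3 and TGFBI fell too, and so did SMAD7, an inhibitor of TGF-beta signalling (-0.59, limma adjusted p = 0.0352). POSTN (ENSG00000133110), periostin, a matrix protein outside this list, was at 11.1, 7.30 and 13.2 CPM in HG and 4.96, 3.38 and 4.07 CPM in HG-Res, a change of -1.14 ± 0.21 (SE, limma adjusted p = 0.0333).

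The matrix genes that rose were FN1 (fibronectin), TNC (tenascin C), CCN2 (connective tissue growth factor) and TIMP3, an inhibitor of matrix proteases. FN1 was at 463, 449 and 467 CPM in HG and 601, 620.2 and 610.4 CPM in HG-Res, a change of 0.41 ± 0.05 (SE, limma adjusted p = 0.01), and the other 3 rose by 0.29 to 0.33. COL1A1 and COL1A2 had log2 changes of -0.01 and -0.01 and did not pass. MMP2 alone passed in every fit that left out 1 library. Falls numbered 2, 1 and 2 without HG-Res replicates 1, 2 and 3 and 2 without HG replicate 1, where no member rose. They numbered 3, with 1 rise, without HG replicate 3. Without HG replicate 2 there were 10 falls and 14 rises, where 2374 of all 12631 genes fell and 1979 rose.

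Genes of the ATF4 response to amino acid stress fell where they changed. Of 23, 22 were tested, 5 fell and none rose, with a median of -0.13, where 2.27% of all genes fell. STC2 (ENSG00000113739), stanniocalcin 2, was at 132, 136 and 139 CPM in HG and 73.4, 73.01 and 69.5 CPM in HG-Res, a change of -0.91 ± 0.06 (SE, limma adjusted p = 0.00136). DDIT4 (ENSG00000168209), an inhibitor of mTORC1, was at 193, 219 and 173 CPM in HG and 112, 115 and 116 CPM in HG-Res, a change of -0.76 ± 0.09 (SE, limma adjusted p = 0.0105). SLC7A5, MTHFD2 and ATF4 (ENSG00000128272) itself also fell, ATF4 from 737 ± 32.97 to 601 ± 16.8 CPM (SD, n = 3). VEGFA (ENSG00000112715), a growth factor from the glycolysis and hypoxia list, was at 46.1, 52.1 and 42.6 CPM in HG and 26.4, 26.4 and 29.3 CPM in HG-Res, a change of -0.75 ± 0.09 (SE, limma adjusted p = 0.0115). STC2 alone of the 5 passed in every fit that left out 1 library. The count was 1 in the fits that left out 1 HG-Res replicate or HG replicate 1, and 3 without HG replicate 3. Without HG replicate 2 it was 7, with 2 rises, where 2374 of all 12631 genes fell and 1979 rose. The count was 3 under both TMM and median-of-ratios scaling.

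A minority of ribosomal protein genes fell. Of 32 cytosolic ribosomal protein genes, 5 fell and none rose, where 2.27% of all genes fell, and 24 lay below 0, as did 6362 of the 12699 genes tested. The median was -0.12. RPS24 (ENSG00000138326) was at 519.7, 535 and 491 CPM in HG and 308, 335 and 349 CPM in HG-Res, a change of -0.64 ± 0.07 (SE, limma adjusted p = 0.0082). RPL5, RPL23, RPL6 and RPL11 fell by 0.36 to 0.26. Among 22 genes of RNA polymerase I and the nucleolus, machinery that SIRT7 is known to act on, 1 fell: NPM1 (ENSG00000181163), nucleophosmin, at 1435, 1275 and 1484 CPM in HG and 1027, 1028 and 1034 CPM in HG-Res, a change of -0.44 ± 0.06 (SE, limma adjusted p = 0.0208). The ribosomal count was 2 under either other scaling, at most 1 in the fits that left out 1 HG-Res replicate or HG replicate 1, 5 without HG replicate 3 and 10, with 2 rises, without HG replicate 2. The nucleolar list had 8 falls and 2 rises without HG replicate 2, where 2374 of all 12631 genes fell and 1979 rose. NPM1 did not pass in the fits that left out 1 HG-Res replicate or HG replicate 1. These genes have processed copies elsewhere in the genome, and the handling of shared reads is not given in the sources used here.

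Lipid synthesis genes that changed rose. Of 11 fatty acid synthesis genes tested, 3 rose and none fell, with a median of 0.11, where 2.58% of all genes rose. FASN (ENSG00000169710), fatty acid synthase, was at 333, 396 and 331 CPM in HG and 522, 509 and 469 CPM in HG-Res, a change of 0.50 ± 0.09 (SE, limma adjusted p = 0.029). ACLY and ACSS2, both sources of cytosolic acetyl-CoA, rose by 0.31 and 0.39 (limma adjusted p = 0.0236 and 0.0179), and SCD was at 0.01. Among 23 sterol genes 1 rose, with a median of 0.13. Of the autophagy and lysosome genes, 2 of 26 rose, among them the cholesterol exporter NPC1 by 0.38 (limma adjusted p = 0.028). The sterol and lysosome counts lie near the share over all genes. None of these passed in the fits that left out 1 HG-Res replicate or HG replicate 1. In the fit that lacked HG replicate 2, 4 fatty acid, 10 sterol and 9 lysosomal genes rose and 2, 3 and 3 fell. Of all 12631 genes tested in it, 1979 rose and 2374 fell.

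Lists of glucose use and respiration held few calls. Of 27 glycolytic and hypoxia-inducible genes, GPI and HK1 rose, by 0.30 and 0.26, and VEGFA fell, counts near the 2.58% and 2.27% of all genes. Neither rise passed under TMM or median-of-ratios scaling. TXNIP, the main glucose-induced target of MondoA, was at 117, 103 and 114 CPM in HG and 129.8, 130.5 and 134 CPM in HG-Res and did not pass, with a change of 0.24 ± 0.07 (SE, limma adjusted p = 0.0901), but did without HG replicate 2, at 0.19. Of 30 nuclear genes of oxidative phosphorylation, 1 fell, ATP5F1C (-0.30, limma adjusted p = 0.039). Of 13 genes of the mitochondrial genome, 12 lay above 0 and 2 rose, MT-ND3 by 0.29 and MT-CO2 by 0.25 (limma adjusted p = 0.0291 and 0.0379), of which TMM scaling called none. Of 16 fatty acid oxidation and PPAR genes tested, UCP2 alone rose (0.42, limma adjusted p = 0.0365). Without HG replicate 2, 1979 of all 12631 genes rose and 2374 fell. In that fit 11 glycolytic genes rose and 4 fell, and 6 nuclear respiratory genes fell and 2 rose. There, 4 mitochondrial genes rose, and 2 fatty acid oxidation genes rose and 2 fell. None of these genes passed in the fits that left out 1 HG-Res replicate or HG replicate 1.

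NRF2 antioxidant genes held few calls, with a median of 0.01, where 2.58% of all genes rose and 2.27% fell. Of 30, OSGIN1 and PGD rose, by 0.49 and 0.30, and NQO1 and thioredoxin TXN fell, with changes of -0.48 and -0.37 (limma adjusted p = 0.0328, 0.038, 0.01 and 0.044). HMOX1 was at 68.5, 73.8 and 67.5 CPM in HG and 78.5, 78.01 and 76.1 CPM in HG-Res and did not pass, with a change of 0.15 ± 0.06 (SE, limma adjusted p = 0.216). The fit without HG replicate 2 gave 5 rises and 6 falls of 29 tested, where 1979 of all 12631 genes rose and 2374 fell. HMOX1 was among those rises, at 0.19 (limma adjusted p = 0.0225). Genes that NFAT5 raises in hypertonic medium had a median of 0.34 over the 8 tested. Of these 1, SGK1, rose, at 27.4, 24.7 and 28.4 CPM in HG and 37.8, 36.99 and 37.4 CPM in HG-Res, a change of 0.47 ± 0.07 (SE, limma adjusted p = 0.0241). The sodium-inositol transporter SLC5A3 was at 36.2, 19.4 and 41.3 CPM in HG and 50.8, 46.8 and 44.1 CPM in HG-Res, where HG replicate 2 was lowest, and its change of 0.60 (limma adjusted p = 0.214) was 0.28 without that library, where it passed (limma adjusted p = 0.0263). There, 4 of the 8 rose. None of these calls was made in the fits that left out 1 HG-Res replicate or HG replicate 1.

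No sirtuin gene passed the test. Resveratrol is used as a sirtuin activator, but RNA levels do not measure sirtuin activity, which was not tested. SIRT1 was at 34.3, 23.9 and 40.8 CPM in HG and 38.9, 32.7 and 30.3 CPM in HG-Res. SIRT7, which the study's title names, was at 46.8, 56.2 and 46.1 CPM in HG and 56.2, 57.2 and 55.4 CPM in HG-Res. SIRT2 was at 51.4, 57.1 and 46.7 CPM in HG and 59.8, 59.7 and 56.1 CPM in HG-Res. The groups overlapped in all 3 genes. Changes were 0.07 ± 0.19 (SE, limma adjusted p = 0.894) for SIRT1, 0.18 ± 0.09 (SE, limma adjusted p = 0.274) for SIRT7 and 0.18 ± 0.09 (SE, limma adjusted p = 0.274) for SIRT2. SIRT3, SIRT4, SIRT5 and SIRT6 had log2 changes of -0.02, -0.21, -0.19 and 0.13 (limma adjusted p = 0.939, 0.223, 0.222 and 0.653). HG replicate 2 held the highest HG values of SIRT7, SIRT2 and SIRT6. Without it SIRT7, SIRT2 and SIRT6 passed at 0.27, 0.25 and 0.28 (limma adjusted p = 0.00633, 0.0171 and 0.0182), and NAMPT, which makes the NAD precursor, fell by 0.39 (limma adjusted p = 0.008). That fit lacks the most deviant HG library, so its p-values understate the spread between HG samples. Of the 14 sirtuin and NAD genes tested with all libraries none passed, and NNMT and PARP1, named by the rule for lists without a call, had log2 changes of -0.19 and -0.07 (limma adjusted p = 0.173 and 0.518).

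Growth and stress lists held few calls with all 6 libraries, where 2.58% of all genes rose and 2.27% fell. More passed without HG replicate 2, as they did among all genes, of which 1979 of 12631 rose and 2374 fell there. Of 34 cell cycle genes, CCND1 (cyclin D1) rose and PCNA and MCM6, both needed for DNA replication, fell, with changes of 0.43, -0.26 and -0.30 on the log2 scale (limma adjusted p = 0.0315, 0.0495 and 0.0378). CCND1 is also on the estrogen receptor list, where GPER1, a membrane estrogen receptor, was at 4.75, 5.67 and 5.34 CPM in HG and 9.92, 9.71 and 8.90 CPM in HG-Res and rose by 0.75 (limma adjusted p = 0.01). ESR1 and ESR2 were under 0.3 CPM. Among immediate early genes, DUSP1 and KLF2 rose by 0.56 and 0.54 and EGR1 changed by -0.34 (limma adjusted p = 0.0264, 0.0328 and 0.0451). SMTN, smoothelin, alone rose among 13 smooth muscle genes (0.46, limma adjusted p = 0.0303). Leaving out HG replicate 2 gave 7 rises and 6 falls among cell cycle genes, 5 and 2 among immediate early genes, 4 and 2 among smooth muscle genes, and 2 and 1 on the estrogen list.

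In the lists of heat shock genes, endoplasmic reticulum chaperones, metallothioneins, complement and MondoA targets no gene passed, with medians between -0.10 and 0.06. Their members with the highest means included HSPA8 (0.20), HSP90AB1 (-0.02), CALR (-0.0019), HSP90B1 (-0.14), MT2A (-0.0048), MT1E (-0.35), C1QBP (0.01), CD59 (0.05) and PFKFB3 (0.04), given as log2 changes with limma adjusted p of 0.0584 to 0.991. Without HG replicate 2, where 1979 of all 12631 genes rose and 2374 fell, members of each of these lists passed. Up to 5 rose, among the heat shock genes. None of the calls in the growth lists was made without HG-Res replicate 1, 2 or 3.

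**Figure D5:**
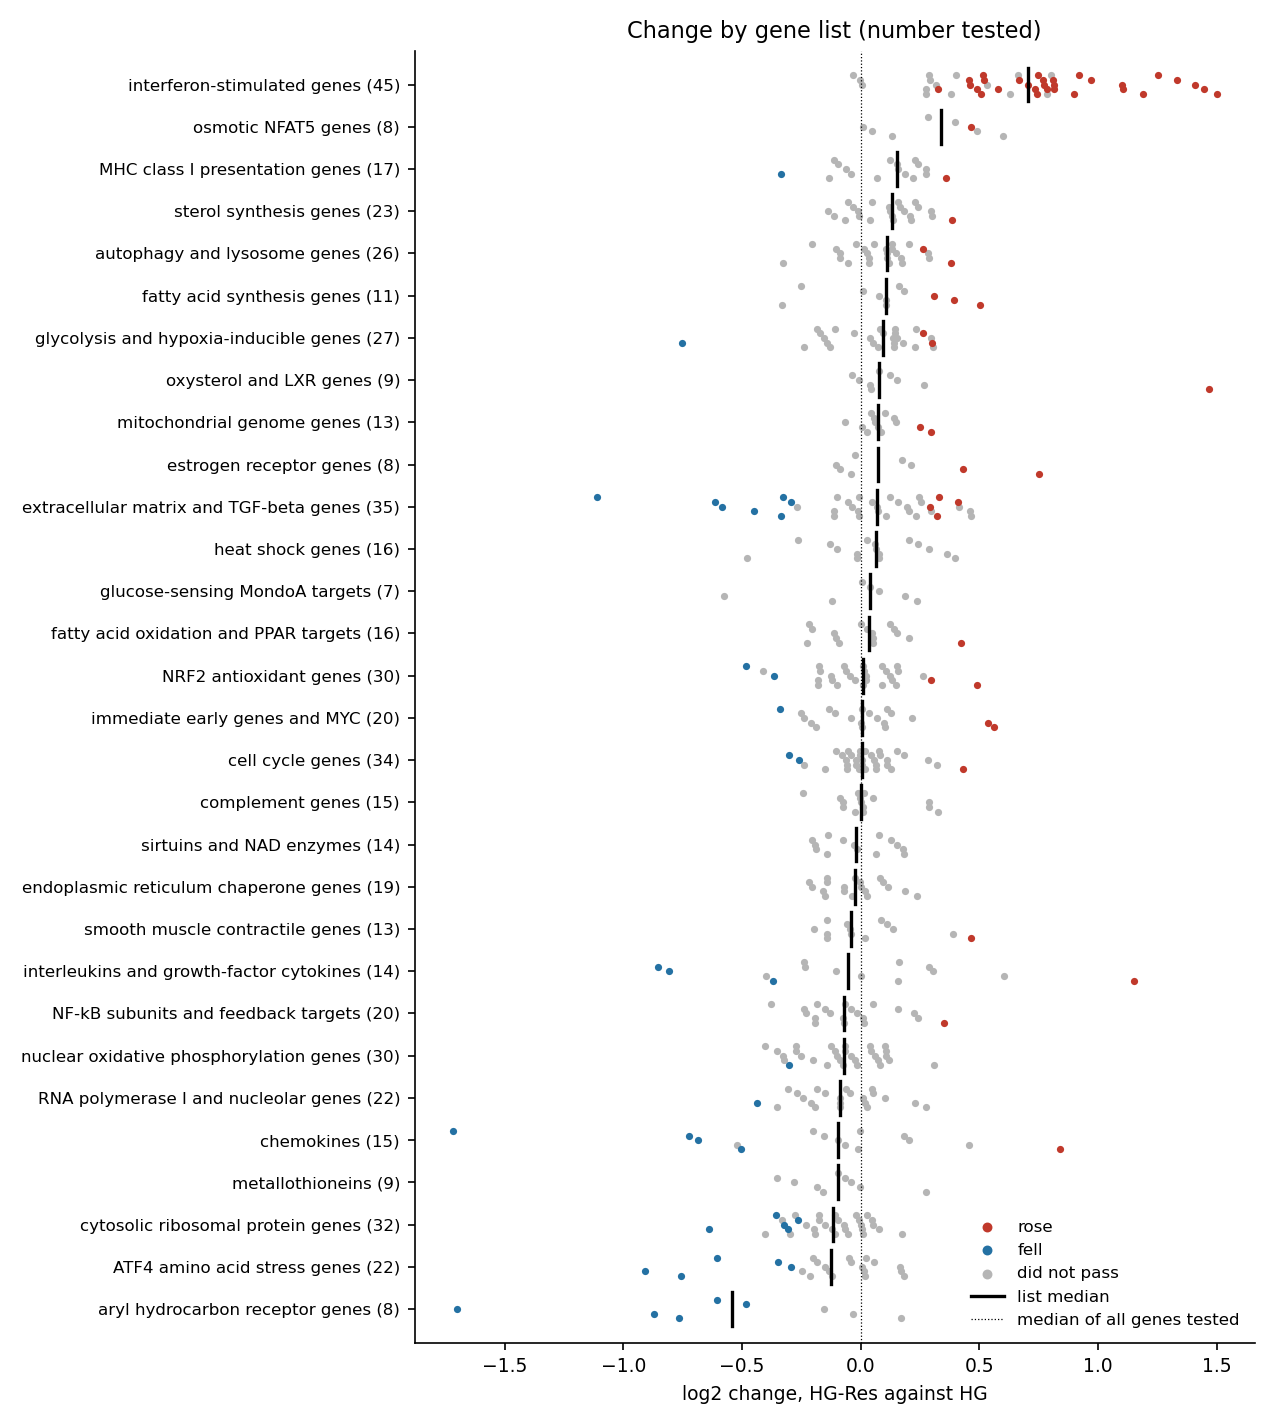
Log2 change between HG-Res and HG (x axis) of each gene tested in 30 of the 31 lists (y axis, number tested in brackets, ordered by median), with genes that rose in red, fell in blue and did not pass in grey. The interferon-stimulated genes lie highest, with a median of 0.70, and the aryl hydrocarbon receptor genes lowest, with a median of -0.54.

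Levels of the same genes in the other groups are given beside these values, without a test. In HG-Res-SIRT7-Inh, MX1 was at 11.3 to 13.9 CPM, OASL at 21.03 to 32.1, and ISG15 at 93.6 to 157, below the HG libraries in each. Not all large rises did so: HERC5 was at 16.7 to 29.7 CPM, overlapping its HG libraries. IL18 was at 4.51 to 14.3 CPM, a range that overlaps both HG and HG-Res. VIPR1 was at 0.39 to 0.94 CPM and CXCL8 at 1.25 to 2.61, below the HG-Res libraries, whereas MMP2 was at 35.7 to 51.97. The values of Ctrl were used only for the 354 genes of the authors' deposited table of HG against Ctrl, all marked by the authors as different. There MX1 was at 15.02 to 15.7 CPM, OASL at 44.2 to 47.3 and CXCL8 at 8.70 to 9.16 in Ctrl. DDIT4, SLC7A5 and VEGFA were at 407 to 421, 495 to 522 and 77.3 to 81.3 CPM in Ctrl. All these comparisons share the HG or HG-Res libraries.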

How the data were processed

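Poly(A)-selected RNA of 12 libraries was sequenced as paired-end reads, per the labels' protocols. Reads were trimmed with Trimmomatic and the build was rn6, per the submitters' processing notes. The aligner, counting tool, annotation and strand setting were not given in the sources used here. The authors' deposited tables hold 1 value for each gene and library, beside the authors' own log2 fold change, p-value and q-value. The value columns are headed TPM per the file headers, but all deposited values of up to 20 steps lie within 0.0051 of a whole multiple of 1 step per library (0.0302 to 0.0321) and the columns sum to 1e6, so they were treated as CPM without length scaling. Rounding to 0.01 kept exact counts from being recovered, so edgeR and DESeq2 were not run. As an alternative, voom was run on approximate reads.

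From the deposited CPM, log2(value + 1) was fitted with limma 3.58.1 in R 4.3.3 for HG and HG-Res alone (group means, empirical Bayes with trend, no block, two-sided, Benjamini-Hochberg). Fold changes on that scale are too small for low genes. The code was tested on simulated data. Genes and lists were chosen with earlier results of these data known, as was the fit to these 2 groups rather than all 9 high-glucose libraries. Genes are named by a rule: the 12 largest rises and falls among called genes with a mean of at least 1 CPM and no overlap, up to 4 called members of each of 31 lists (up to 2 of the highest mean where none passed), the sirtuins and the markers. The rule asked for symbols from reference tables, which could not be met, since none holds these identifiers. Other named genes were members of a list counted beside them or were chosen after their values were seen. Alternatives varied the scaling, filter, pseudocount, weights, block and libraries. Promoters came from RefSeq (GRCr8). Some genes that enter the counts are not reported here by name.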

Additional observations from a re-analysis of the deposited data

How the results depend on the processing

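The reported 615 genes (327 rose, 288 fell) became 91 (42 and 49) with 1 spread over all 9 high-glucose libraries and 391 (208 and 183) under TMM scaling. They became 1088 (599 and 489) by the q-value of the authors' deposited table among genes tested. With a minimum fitted log2 change of 1 in size added, 23 were left (11 and 12). Leaving out 1 library gave 24 to 4353 genes, 10 to 1979 of which rose and 14 to 2374 of which fell. The replicate block gave 22 (11 and 11), all among the 615. The deviations of same-numbered replicates correlated at 0.25, 0.15 and -0.28, and HG replicates 1, 2 and 3 correlated best with HG-Res replicates 1, 3 and 1. Deviations from a mean of 3 libraries sum to 0 in each group, so these correlations are not independent. They cannot tell whether same-numbered replicates share a batch. The other alternatives stayed within 1.5 times: group weights 492, median-of-ratios scaling 449, no filter 461, a filter of 1 CPM 624, a pseudocount of 0.1 613, and, added after seeing the data, voom on approximate reads 609 and the 9-library fit without HG-Res-SIRT7-Inh replicate 3 800. edgeR and DESeq2 were planned for recovered reads and not run, since the rounded values are not counts.

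Of 73 genes named by the rule and called, 18 passed in all 17 alternatives and none changed sign. Signs changed only in genes that did not pass, among the genes named by the rule. CALR was 0.013, 0.0093 and 0.012 and MT2A 0.0098, 0.0064 and 0.0035 under median-of-ratios scaling, TMM scaling and the authors' values. With 1 library left out the log2 changes ranged from -0.025 to 0.031 (CALR), -0.054 to 0.065 (MT2A), -0.039 to 0.027 (HSP90AB1), -0.048 to 0.065 (C1QBP), -0.071 to 0.018 (SIRT3) and -0.14 to 0.23 (SIRT1). Named genes outside the rule also changed sign without HG replicate 2: AHR (0.17 to -0.03), IFNAR1 (0.17 to -0.11), COL1A1, COL1A2, CCL2, GBP1, MYLIP and SCD. The cause of these shifts was not tested.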
